A study of Mus musculus with 6 samples.

Results

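Nonsense-mediated decay (NMD) is the pathway that destroys messenger RNAs whose translation ends too early. The genes described here are 9 of its factors, Upf1, Upf2, Upf3a, Upf3b, Smg1, Smg5, Smg6, Smg8 and Smg9. They were taken by gene symbol from a table of 22298 mouse genes. Each symbol occurred once, and all 9 had enough reads to be tested among 13082 genes. RNA was sequenced from GC-1spg, an immortalised line from mouse testis that serves as a stand-in for type B spermatogonia. It was collected 48 h after transfection with an siRNA against Mettl3 (si-METTL3, n = 3) or with a control siRNA (si-NC, n = 3). Both groups were grown alike, in DMEM medium with 10% FBS, and no untransfected cells were included. METTL3 is the catalytic subunit of the complex that writes N6-methyladenosine (m6A) into mRNA, and neither m6A nor any protein was measured. The labels print 1 siRNA sequence for both groups, so the control sequence is not known, and they tag si-NC as untreated although it was transfected. Whether replicates were separate cultures is not stated, so p-values measure the spread between these 6 libraries, which may be technical.

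In NMD, the RNA helicase UPF1 meets a ribosome stopped at a premature stop codon together with the release factors. UPF2 and UPF3 proteins link UPF1 to exon junction complexes left downstream by splicing. The kinase SMG1, held in check by SMG8 and SMG9, then phosphorylates UPF1. Phosphorylated UPF1 recruits SMG6, which cuts the RNA, and SMG5, which helps to bring in deadenylation and decapping. In mammals several NMD factor mRNAs are themselves NMD targets. In mice, germ cells depend on the pathway, and loss of UPF2 in the male germ line blocks spermatogenesis.

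The siRNA printed in the labels is shown because it defines the tested group. Its 19 bases occur in the transcript of Mettl3, a gene on chromosome 14. The capitals mark bases 12 to 18, which pair with the seed of the antisense strand.
siRNA (sense): gctaccgtatgGGACATTa
None of the 9 NMD factors had the 7-base seed match GGACATT in the 3′ UTR of its representative transcript, a motif held there by 10.1% of the 13056 tested genes with a coding transcript. Smg8 and Smg6 held it outside the 3′ UTR. Counted anywhere in the transcript, 3′ UTR included, 23.2% of tested genes held it. The longest run the siRNA shared with any NMD factor was 9 bases. Mettl3 itself fell to 1.85, 2.45 and 2.57 FPKM (fragments per kilobase of transcript, scaled for depth) in si-METTL3, against 8.02, 8.17 and 8.12 in si-NC (edgeR log2 fold change -1.79, SE 0.14, adjusted p = 0.000579). The knockdown was thus present in each si-METTL3 library.

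The mRNA table held between 22146057 and 31469144 counts per si-METTL3 library and between 29679593 and 37698956 per si-NC library. Most genes of a general germ line and spermatogonial list, not specific to type B cells, were sparse. Of 16 germ line and spermatogonial genes, 6 could be tested, and Ddx4, Dazl and Stra8 had at most 7 counts in any library while Nanos2, Sall4 and Sohlh1 were at 0 in all 6. Uchl1 was the most abundant, with 865 to 1516 counts, and of the 6 Gfra1 was called higher (log2 fold change 0.65, edgeR) and Piwil2 lower (-0.74). The 8 Sertoli genes summed to 416, 453 and 430 CPM (counts scaled to the total count of each library) in si-METTL3, against 287, 264 and 288 in si-NC, of which Wt1 and Clu make up most. Of the 6 that could be tested, Wt1 (log2 fold change 0.61) and Clu (1.37) were higher by edgeR and Gata4 (-0.41) was lower. Genes of other tissues moved with some libraries. Summed over 5 blood genes, the level was 19.1, 16.1 and 12.4 CPM in si-METTL3, against 0.448, 0.809 and 11.8 in si-NC. Over 19 lung genes it was 215, 216 and 175 CPM in si-METTL3, against 95.7, 87.1 and 164 in si-NC. The 12 macrophage and endothelial genes summed to 65.4, 63.9 and 52.8 CPM in si-METTL3, against 29.0, 29.5 and 51.3 in si-NC. Thus si-NC replicate 3 stood with the si-METTL3 libraries on these lists. No gene of the blood, lung or macrophage and endothelial lists passed, and the part of any marker list in the results below was not tested. A further library, si-NC replicate 2, stood apart from si-NC replicates 1 and 3 on 3 of the NMD factors, as described with them. Their results are given with and without it, and it was singled out on the values of those factors.

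One of the 9 NMD factors differed between the groups. Smg9, which binds and restrains the SMG1 kinase, fell, and no factor rose (quasi-likelihood test in edgeR, with p-values adjusted by Benjamini-Hochberg over all tested genes and a threshold of 0.05). Of all tested genes 18.9% passed, 10.2% lower and 8.67% higher. At an unadjusted p under 0.05 there were 3 of the 9 lower (Smg9, Smg5 and Smg6) and 0 higher, against 18.8% of all tested genes lower and 16.9% higher. DESeq2, which called 20.7% of genes, had 2 lower and 0 higher. With DESeq2's size factors in edgeR, which called 20.3% of genes, the factors called were again Smg9 and Smg5. The median log2 fold change of the 9 was -0.08, against 0.03 over all tested genes. In scaled counts (CPM, per effective library size) the groups did not overlap for 3 factors, all lower in si-METTL3, while 21.3% of all tested genes were lower without overlap and 20.2% higher. The authors' deposited table lists 2 of the 9 at an adjusted p under 0.05, Smg9 (0.0049) and Smg5 (0.0494), and 11.9% of its genes. Without si-NC replicate 2, 5 of the 9 passed. Smg1, Upf2 and Upf3b were higher, as were 17.9% of all tested genes, and Smg9 and Smg5 lower, as were 18.9%. Smg1, Upf2 and Upf3b were high in the library left out, so its removal had to raise their fold changes, and their calls are no separate support. Each of these 3 passed in only 1 of 6 fits that left out a library. Without si-NC replicate 3, the library closest to si-METTL3 on the blood and lung lists, Smg9 had a log2 fold change of -0.42 (adjusted p = 0.0546), and 12.2% of all tested genes passed.

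**Figure D1:**
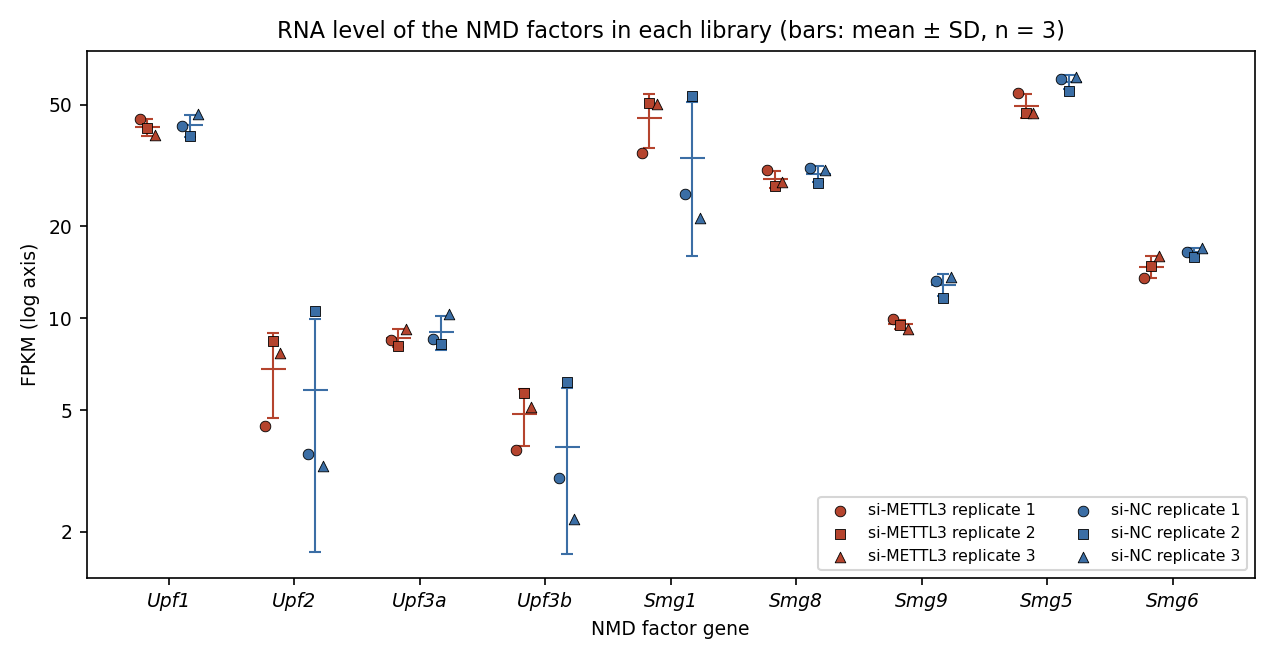
RNA level of each NMD factor gene (horizontal axis) in FPKM on a log axis, with a point per library, si-METTL3 in red to the left of si-NC in blue, and the mean ± SD of 3 libraries per group. Upf2, Upf3b and Smg1 spread widely within si-NC because replicate 2 is high, and Smg9 lies between 9.24 and 9.91 FPKM in si-METTL3, below all si-NC libraries.

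Per length, the factors differed in level by about an order of magnitude. In si-METTL3, Smg5 was highest at 49.6 ± 4.48 FPKM (SD, n = 3), followed by Smg1 (45.2 ± 9.02), Upf1 (42.2 ± 2.65), Smg8 (28.5 ± 1.83), Smg6 (14.8 ± 1.20), Smg9 (9.56 ± 0.336), Upf3a (8.62 ± 0.573), Upf2 (6.84 ± 2.13) and Upf3b (4.84 ± 1.03). The libraries of neighbours in this order overlapped among Smg5, Smg1 and Upf1, and from Smg9 down to Upf3b, whereas Upf1, Smg8 and Smg6 were each clear of the next. In si-NC the means ran Smg5 (59.4 ± 3.30 FPKM), Upf1 (42.8 ± 3.60), Smg1 (33.5 ± 17.5), Smg8 (29.7 ± 1.85), Smg6 (16.5 ± 0.546), Smg9 (12.8 ± 1.07), Upf3a (9.02 ± 1.14), Upf2 (5.81 ± 4.10) and Upf3b (3.79 ± 2.10). Here Smg5 was clear of Upf1, and Smg8, Smg6 and Smg9 were each clear of the next, while Upf1, Smg1 and Smg8 overlapped in turn, as did Upf3a, Upf2 and Upf3b. The order of the means thus differed between the groups in the place of Smg1 alone, and Smg1 spread widely in si-NC.

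Upf1 (ENSMUSG00000058301, chromosome 8, 70331525 to 70353278, minus strand; all positions are GRCm38 from GENCODE M21) encodes the helicase at the centre of the pathway. It had 45.0, 41.9 and 39.8 FPKM in si-METTL3, against 42.6, 39.4 and 46.6 in si-NC. The groups overlapped across their range, and the log2 fold change was -0.04 (edgeR, SE 0.09, adjusted p = 0.77). Leaving out 1 library gave values between -0.11 and 0.01, none of which passed.

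Upf2 (ENSMUSG00000043241, chromosome 2, 5951469 to 6056703, plus strand) encodes the adaptor between UPF1 and UPF3 proteins. Its level was 4.42, 8.41 and 7.69 FPKM in si-METTL3, against 3.60, 10.5 and 3.29 in si-NC. The highest and the lowest library were both si-NC, and the log2 fold change of 0.22 had an SE of 0.43 (edgeR adjusted p = 0.745). Without si-NC replicate 2 it was 0.88 (edgeR, SE 0.23, adjusted p = 0.0298), and without si-NC replicate 3 it was -0.08 (adjusted p = 0.919).

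Upf3a (ENSMUSG00000038398, chromosome 8, 13785615 to 13799193, plus strand) and Upf3b (ENSMUSG00000036572, X chromosome, 37091678 to 37110322, minus strand) are paralogs. UPF3B bridges UPF2 to the exon junction complex, and UPF3A has been described in mice as a weaker or even opposing partner. Upf3a had 8.51, 8.11 and 9.24 FPKM in si-METTL3, against 8.53, 8.20 and 10.3 in si-NC, with overlapping groups and a log2 fold change of -0.08 (edgeR, SE 0.12, adjusted p = 0.658). Upf3b had 3.69, 5.70 and 5.12 FPKM in si-METTL3, against 3.00, 6.17 and 2.20 in si-NC. Again si-NC replicate 2 was the highest of the 6 and si-NC replicate 3 the lowest, and the log2 fold change was 0.38 (edgeR, SE 0.35, adjusted p = 0.459). Without si-NC replicate 2 it was 0.87 (edgeR, SE 0.21, adjusted p = 0.0231). Upf3a exceeded Upf3b in every library. Its FPKM was 2.31, 1.42 and 1.80 times that of Upf3b in si-METTL3, against 2.84, 1.33 and 4.69 times in si-NC. On the log2 scale the ratio averaged 0.86 ± 0.35 in si-METTL3 and 1.38 ± 0.92 in si-NC (SD, n = 3 each), and the difference of -0.53 was within the spread (two-sided exact permutation test, p = 0.5; 3 against 3 cannot go below 0.1). Without si-NC replicate 2 the difference was -1.01 and the groups did not overlap. The exact permutation p of 0.2 is then the lowest that 3 against 2 can reach, so it cannot decide. Without si-NC replicate 3 the difference was -0.10 (exact permutation p = 1). How reads shared by paralogs were divided was not given in the sources used here.

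Smg1 (ENSMUSG00000030655, chromosome 7, 118131308 to 118243670, minus strand) encodes the kinase that phosphorylates UPF1, and it drew the most counts of the 9, up to 20527 in a library. It had 34.8, 50.6 and 50.2 FPKM in si-METTL3, against 25.6, 53.6 and 21.3 in si-NC. All 3 si-METTL3 libraries lay above si-NC replicates 1 and 3, and below si-NC replicate 2 in FPKM, though in CPM si-METTL3 replicate 3 (699) was above it (681). The log2 fold change was 0.48 (edgeR, SE 0.34, adjusted p = 0.35). Without si-NC replicate 2 it was 0.97 (edgeR, SE 0.21, adjusted p = 0.016), and without si-NC replicate 3 it was 0.21 (adjusted p = 0.695).

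Smg8 (ENSMUSG00000020495, chromosome 11, 87077732 to 87086774, minus strand) and Smg9 (ENSMUSG00000002210, chromosome 7, 24399619 to 24422778, plus strand) encode the subunits that bind SMG1 and hold back its activity. Smg8 had 30.6, 27.1 and 28.0 FPKM in si-METTL3, against 31.0, 27.6 and 30.6 in si-NC, and the groups overlapped (log2 fold change -0.08, SE 0.08, edgeR adjusted p = 0.532). Smg9 had 9.91, 9.53 and 9.24 FPKM in si-METTL3, against 13.2, 11.6 and 13.7 in si-NC. Every si-METTL3 library was below every si-NC library. In CPM, Smg9 averaged 25.9 ± 0.562 in si-METTL3 and 35.2 ± 3.40 in si-NC (SD, n = 3 each), a log2 fold change of -0.45 (edgeR, SE 0.10, adjusted p = 0.0232) or 1.36-fold lower. Its value stayed between -0.52 and -0.42 when 1 library was left out. The adjusted p then passed in 1 of 6 fits, at 0.0052 without si-NC replicate 2, and lay between 0.0538 and 0.0956 in the other fits.

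Smg5 (ENSMUSG00000001415, chromosome 3, 88336260 to 88362338, plus strand) encodes a phospho-UPF1 binding adaptor. It had 54.7, 47.0 and 47.0 FPKM in si-METTL3, against 60.9, 55.6 and 61.7 in si-NC. The groups did not overlap, though the highest si-METTL3 library came within 1 FPKM of the lowest si-NC library, and the log2 fold change of -0.29 (SE 0.08) just missed the threshold (edgeR adjusted p = 0.0534). Without si-NC replicate 2 it was -0.36 (adjusted p = 0.0093). That was the only 1 of 6 fits leaving out a library in which Smg5 passed. Its edgeR adjusted p lay between 0.0641 and 0.186 in the other fits. Smg6 (ENSMUSG00000038290, chromosome 11, 74925823 to 75164448, plus strand) encodes the endonuclease of the pathway. It had 13.5, 14.8 and 15.93 FPKM in si-METTL3, against 16.5, 15.90 and 16.99 in si-NC. In FPKM the groups overlapped slightly and in CPM they did not, and the log2 fold change was -0.18 (edgeR, SE 0.07, adjusted p = 0.106). The gene Srr lies on the opposite strand within the annotated span of Smg6, with at most 260 counts in a library. Strand use in the counting was not given in the sources used here.

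**Figure D2:**
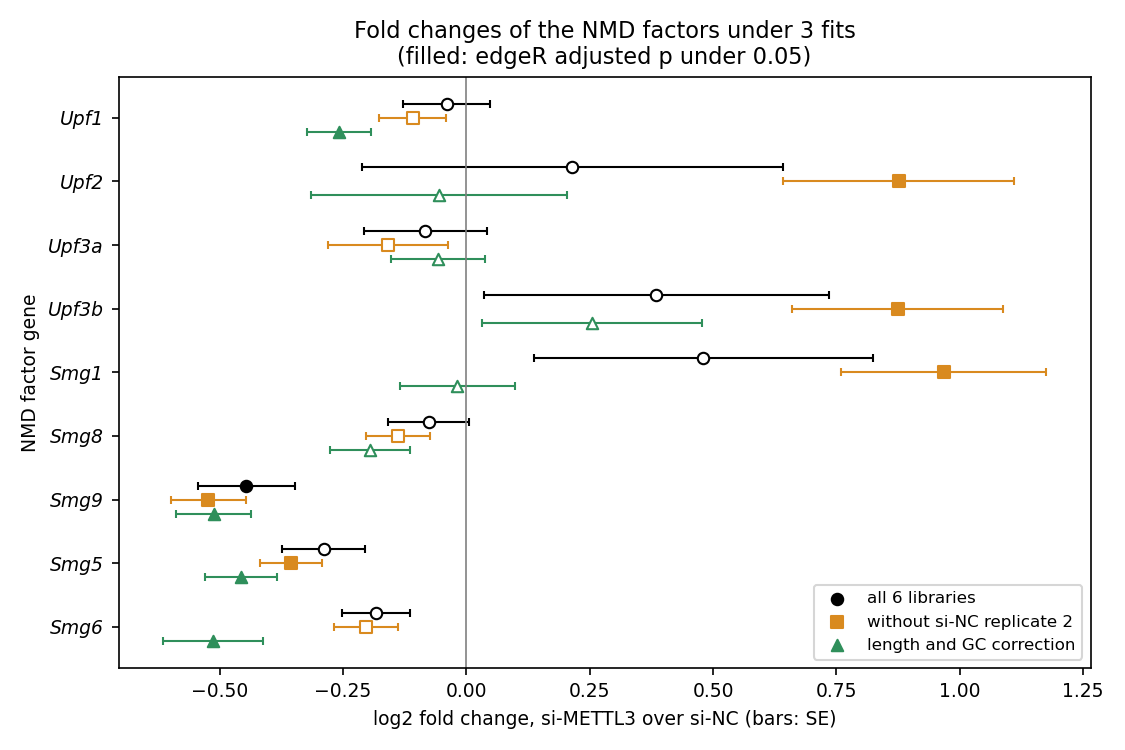
Log2 fold change of si-METTL3 over si-NC (horizontal axis, bars show SE) for each NMD factor gene, from the fit of all 6 libraries (black), without si-NC replicate 2 (orange) and with each library corrected for transcript length and GC content (green). Filled symbols have an edgeR adjusted p under 0.05, and Smg9 is filled in all 3 fits.

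Upf2, Upf3b and Smg1 shared a profile across libraries that the other 6 factors did not show. In si-NC replicate 2 they stood 2.77-fold (Upf2), 2.25-fold (Upf3b) and 2.23-fold (Smg1) above the geometric mean of si-NC replicates 1 and 3. The other 6 lay between 0.847-fold (Smg9) and 0.964-fold (Smg6). Among all tested genes, 2.00% departed upward at least as far as Upf2, 4.42% as far as Upf3b and 4.50% as far as Smg1. Within si-METTL3 the same 3 genes were lowest in replicate 1. In centred log2 CPM, si-NC replicate 2 was at 0.49 for Smg1, beside 0.45 and 0.53 in si-METTL3 replicates 2 and 3. For Upf3b it was at 0.54, beside 0.44 and 0.41, and for Upf2 at 0.80, beside 0.48 and 0.36. Replicates 1 and 3 of si-NC were the lowest libraries for all 3 genes, at -0.50 and -0.83 for Smg1. The profiles of Upf3b and Smg1 were nearly alike, with a root mean square difference of 0.06 in centred log2 CPM over the 6 libraries, and those of Upf1 and Smg8 equally so (0.06).

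The 3 genes also have the lowest GC content of the 9 in their transcripts, a property that the choice of members did not use. It was 42.5% for Upf3b, 43.5% for Upf2 and 44.9% for Smg1, all in the lowest GC quartile of tested genes (up to 45.7%). The others ranged from 50.2% (Smg8) to 60.3% (Smg9), which is above that of 95.4% of tested genes. In the lowest quartile, the median log2 departure of si-NC replicate 2 was 0.47, and in the 3 higher quartiles it was -0.07, -0.18 and -0.20. Of the 3269 genes of the lowest quartile, 3.52% departed at least as far as Upf2, 11.2% as far as Upf3b and 11.5% as far as Smg1. The median log2 fold change between the groups was 0.20 in the lowest quartile and -0.05 to 0.01 in the others. Over tested genes, centred log2 CPM fell with GC content in si-NC replicate 2 and si-METTL3 replicates 2 and 3. It rose with GC content in the other libraries, most steeply in si-NC replicate 3. Per doubling of transcript length its slope was -0.13 and -0.14 in si-NC replicates 1 and 3, and 0.03 to 0.11 in the others.

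**Figure D3:**
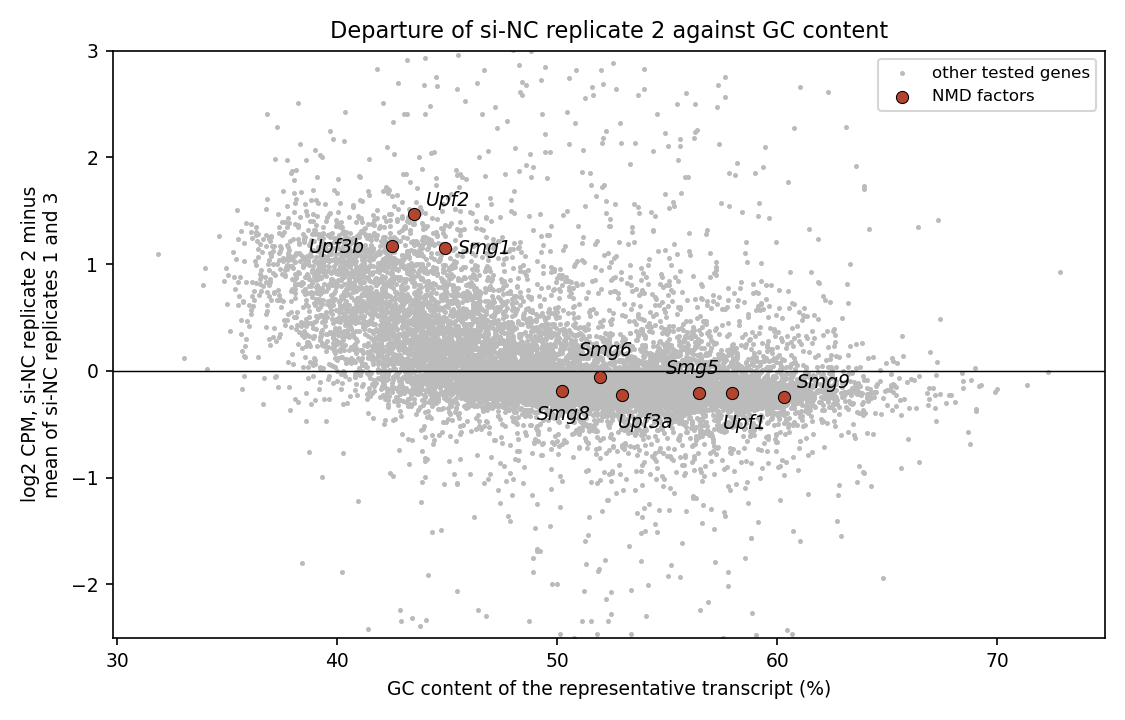
GC content of the representative transcript in percent (horizontal axis) against the log2 CPM of si-NC replicate 2 minus the mean of si-NC replicates 1 and 3 (vertical axis), for tested genes in grey and the NMD factors in red. Upf2, Upf3b and Smg1 sit on the low-GC side between 1.16 and 1.47, the other 6 between -0.24 and -0.05, and 79 genes fall outside the plotted range.

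Correcting each library for its own dependence on transcript length and GC content, a choice made after the data were seen, gave another set of calls. It moved the median of all tested genes to -0.08, against 0.03 without the correction. Smg9 (-0.51, edgeR adjusted p = 0.0037), Smg5 (-0.46, adjusted p = 0.0048), Smg6 (-0.51, adjusted p = 0.0107) and Upf1 (-0.26, adjusted p = 0.0243) were then lower, as were 17.7% of all tested genes, and no factor was among the 7.93% that were higher. Smg1 had a value of -0.02 (SE 0.12), Upf2 -0.05 (SE 0.26) and Upf3b 0.25 (SE 0.22). Correcting for length alone called Smg9 (-0.50), Smg5 (-0.51) and Smg6 (-0.52), all lower, as were 10.7% of all tested genes. Smg1 has the longest representative transcript of the 9, with 15557 bases. With 1 surrogate variable, a hidden factor estimated from the data, Smg9 (-0.40), Smg5 (-0.25) and Smg6 (-0.18) were lower and Smg1 was higher (0.36, edgeR adjusted p = 0.000529). Under that fit 19.9% of all tested genes were lower and 22.9% higher.

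GGACT is the form of the m6A consensus methylated most often in mammals. The sense strand of representative transcripts was searched for it, and 92.0% of 13075 tested genes held it at least once, at a median of 1.05 per kb. Among the NMD factors the density was 1.35 per kb in Smg5, 1.24 in Smg8, 1.20 in Smg6, 0.90 in Smg1, 0.853 in Upf3b, 0.773 in Upf2, 0.65 in Upf1 and 0.446 in Smg9. Upf3a held none. The density of Smg9 rests on 1 site in 2242 bases, and over tested genes the lower and upper quartiles were 0.643 and 1.52 per kb. The sites nearest the stop codon are shown for the factors named in the fits above, with the motif in capitals and 10 bases on each side (GENCODE M21 transcripts, 5′ to 3′).
Smg9: cacgtagggaGGACTtctgtccccg
Smg5: gcagatgcctGGACTctctataaga
Smg6: ttgagagtcgGGACTcctgcctgcg
Upf1: gccgggagaaGGACTtcatcattct
Upf3b: acagggaccgGGACTatgagagaga
Upf2: gggggctccaGGACTacagtagaaa
Smg1: tttcagaaatGGACTgaaaaaatgg
The sites of Smg5, Smg6, Upf3b, Smg9 and Upf1 start 223, 297, 408, 432 and 855 bases before the last base of the stop codon, in coding sequence. Those of Upf2 and Smg1 start 460 and 540 bases after it, in the 3′ UTR. Whether any of these sites was methylated was not measured.

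By a rule on profile, the tested gene most like each factor but Upf3b is given. It was sought among 9886 genes of at least 5 CPM, as the smallest root mean square difference of centred log2 CPM over the 6 libraries. Smg9 was nearest Tubb6, a tubulin gene that fell (log2 fold change -0.43, edgeR adjusted p = 0.0141; difference 0.01). Smg5 was nearest Ier5 (0.01), Smg6 nearest Sod2 (0.02), Upf1 nearest Acot7 (0.01), Smg8 nearest Sar1a (0.0079) and Upf3a nearest Atpaf1 (0.02). Smg1 was nearest Tmem72 (0.02) and Upf2 nearest Olfr986 (0.03). Of these 8 neighbours only Tubb6 passed the threshold. Each was chosen on the 6 libraries that give the fold change, so its call largely repeats that of its factor.

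A further 22 genes of the pathway, in 4 lists, were all tested, and 7 fell and 1 rose. The exon junction complex marks splice junctions on mRNA and triggers NMD when it lies beyond a stop codon. Of its 6 listed genes 3 fell and none rose, all 6 were lower without overlap between the groups, and their median log2 fold change was -0.36. Of all tested genes 10.2% fell, 8.67% rose and 21.3% were lower without overlap. Eif4a3, the helicase that clamps the complex to RNA, had 200, 186 and 183 CPM in si-METTL3, against 303, 273 and 338 in si-NC (-0.68, SE 0.09, edgeR adjusted p = 0.00509). Rbm8a, the Y14 subunit, fell by 0.66 (edgeR adjusted p = 0.0104) and Casc3, the outer core subunit, fell by 0.30 (adjusted p = 0.0286). Magoh (-0.13), Magohb (-0.26) and the disassembly factor Pym1 (-0.42, adjusted p = 0.0502) did not pass. The call of Eif4a3 held in 6 of 6 fits that left out a library, that of Rbm8a in 5 and that of Casc3 in 2. The names Magoh and Magohb belong to near-identical paralogs, so their separate levels are uncertain.

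Of 5 release and cap-binding factors, Etf1, which encodes the release factor that reads stop codons, rose. It had 317, 337 and 364 CPM in si-METTL3, against 235, 256 and 202 in si-NC (log2 fold change 0.56, SE 0.10, edgeR adjusted p = 0.0135). Its call held in 3 of 6 fits that left out a library, and after the length and GC correction the value was 0.28 (adjusted p = 0.0505). Gspt1 (0.05), Gspt2 (0.12), Ncbp1 (-0.01) and Ncbp2 (-0.06) did not pass. Of 8 accessory factors 3 fell, while of all tested genes 10.2% fell and 8.67% rose. Mov10, an RNA helicase that works with UPF1 and that is also known to be induced by interferon, fell by 1.30 (edgeR adjusted p = 0.00489), and the AAA ATPase genes Ruvbl1 and Ruvbl2 fell by 0.40 and 0.34. Ruvbl1 and Ruvbl2 each held the call in 1 of 6 such fits. Of 3 genes whose products shield transcripts from NMD, Pabpc1, the cytoplasmic poly(A)-binding protein, fell by 0.31 (adjusted p = 0.0388, held in 2 of 6 fits), and Ptbp1 (-0.20) and Hnrnpl (0.25) did not pass.

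**Figure D4:**
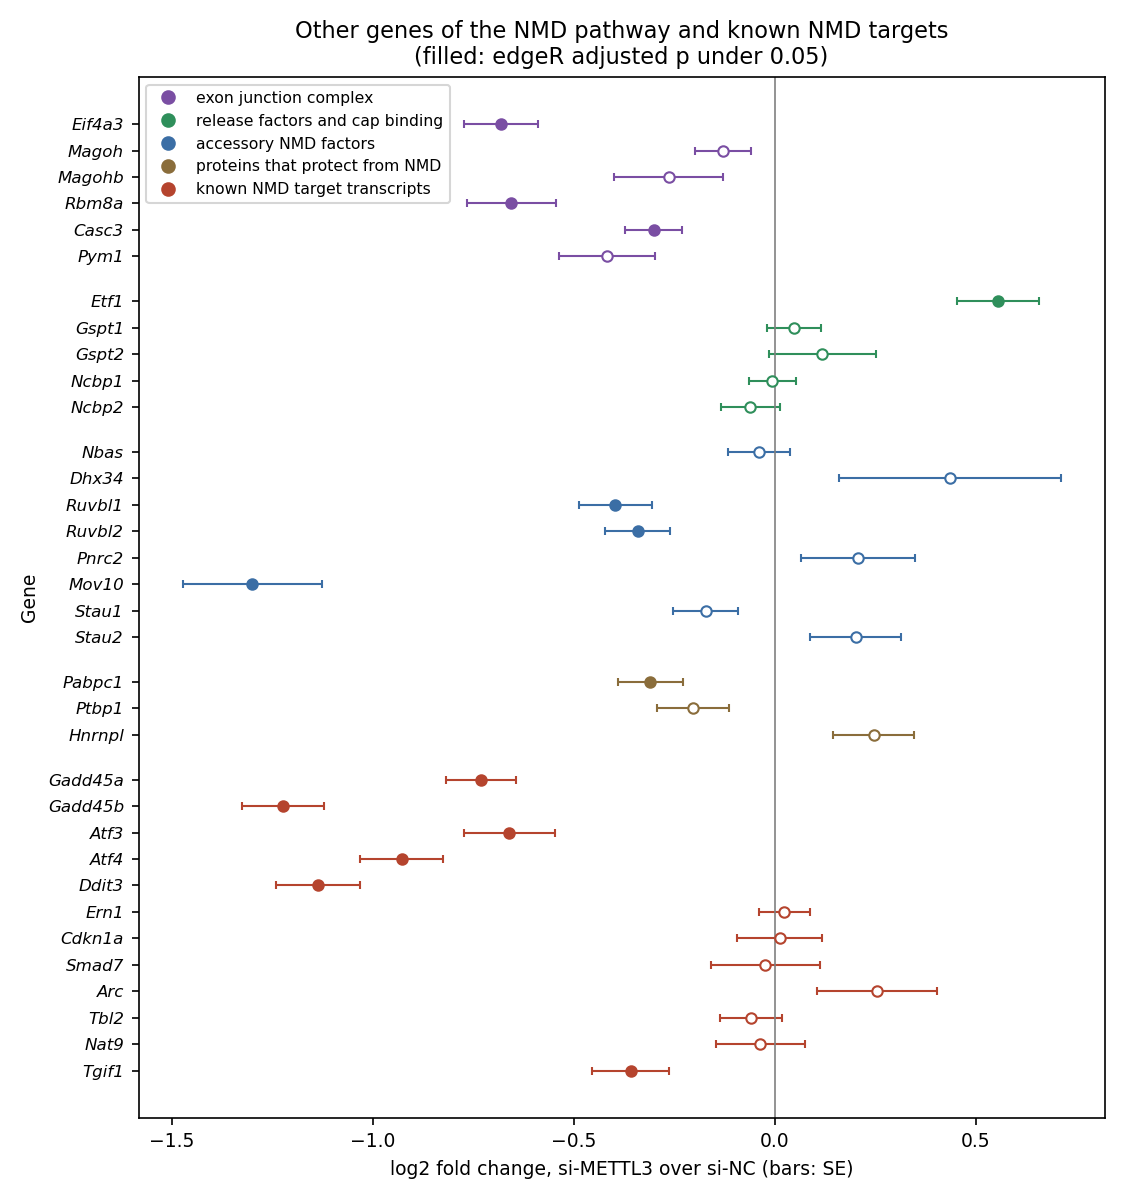
Log2 fold change of si-METTL3 over si-NC (horizontal axis, bars show SE) for 34 tested genes outside the 9 factors, in 5 colours by list, filled where the edgeR adjusted p is under 0.05. Eif4a3, Rbm8a and Casc3 lie below 0 and Etf1 above, and 6 of the 12 known NMD targets lie below 0 with a filled symbol.

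Transcripts known as NMD targets, which accumulate when the pathway fails, fell or did not pass the test. Of 16 listed, 12 were in the mRNA table, 6 fell and none rose (edgeR; at an unadjusted p under 0.05, 6 lower and 0 higher; with DESeq2, 6 called), with a median log2 fold change of -0.21. Of all tested genes 10.2% fell, and 18.8% were lower at an unadjusted p under 0.05. Gadd45b (-1.22), Ddit3 (-1.14), Atf4 (-0.93), Gadd45a (-0.73), Atf3 (-0.66) and Tgif1 (-0.36) fell. All but Tgif1 are also stress-response genes. Ern1 (0.02), Cdkn1a (0.01), Smad7 (-0.02), Arc (0.25), Tbl2 (-0.06) and Nat9 (-0.04) did not pass. The calls of Gadd45a, Gadd45b, Atf4 and Ddit3 held in 6 of 6 fits that left out a library, that of Atf3 in 3 and that of Tgif1 in 1.

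The remaining 4 targets, the snoRNA host genes Gas5, Snhg1, Snhg12 and Zfas1, were read in a separate table of 30924 lncRNA transcripts, of which 5728 were tested and 0.733% passed. They had 20 transcripts there, 15 were tested and 4 fell, 1 of each gene. In counts, Snhg1-211 had 3003, 2251 and 2516 in si-METTL3, against 10535, 8194 and 10601 in si-NC (log2 fold change -1.62, edgeR adjusted p = 0.00913). Snhg12-206 (-1.87, adjusted p = 0.0181), Zfas1-205 (-1.64, adjusted p = 0.0241) and Gas5-210 (-0.93, adjusted p = 0.0406) also fell. Each of the 4 kept its sign in all 6 fits that left out a library but passed in 1 of them, that without si-NC replicate 2, where 1.24% of transcripts passed. Over the 6 fits their log2 fold changes ran from -2.03 to -0.88 and their adjusted p-values from 0.00929 to 0.161. In 3 of those fits no transcript of the table passed.

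The same table held 7 noncoding transcripts of 5 NMD factor genes, 2 of them tested. Neither passed with edgeR (1 had an unadjusted p under 0.05) or with DESeq2. Upf3b-203 had 54, 37 and 69 counts in si-METTL3, against 26, 40 and 15 in si-NC. Replicate 2 of si-NC was again the highest of its group, and the groups overlapped in counts but not in CPM (log2 fold change 1.26, SE 0.43, edgeR adjusted p = 0.229). Smg5-207 had 165, 52 and 116 counts in si-METTL3, against 161, 139 and 174 in si-NC (-0.26, SE 0.33, adjusted p = 0.752). Transcripts annotated as NMD substrates were nearly missing from this table. It listed 8, of which 2 were tested, both of the interferon-induced gene Mx1. In the mRNA table the gene Mx1 itself had a log2 fold change of -3.44 (edgeR). Mx1-203 had 0 counts in each si-METTL3 library, against 18, 21 and 13 in si-NC (edgeR adjusted p = 0.0708), and Mx1-205 had 4, 15 and 0 in si-METTL3, against 62, 64 and 117 in si-NC (adjusted p = 0.171). Both had an unadjusted p under 0.05. DESeq2, which called 8.4% of the transcripts, called Mx1-205 and gave Mx1-203 no adjusted p, and edgeR with no filter on low counts, which called 0.938%, called both.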

How the data were processed

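The authors deposited counts and FPKM values per library for mRNA genes and lncRNA transcripts, per the file headers, with group mean FPKM, log2 fold changes and p-values from a test not given in the sources used here. The tools fastp, Bowtie2, StringTie and RSEM and the build mm9 are named, per the submitters' processing notes, without their roles. All deposited counts were whole numbers. The test was edgeR's quasi-likelihood fit of the group (version 4.0.16 under R 4.3.3) on each table by itself, after filterByExpr and TMM scaling, with Benjamini-Hochberg adjustment and a threshold of 0.05, and the scripts were tested on simulated data. SE is the log2 fold change over the square root of F. The permutation test used scipy 1.17.1. Alternatives used DESeq2 1.42.0, limma 3.58.1 and sva 3.50.0. Representative transcripts had the best APPRIS rank, then the greatest length. The members and lists were chosen with earlier results of these data known. Beyond the members, every list gene that passed is named, or that of smallest p, and the nearest gene in profile (some of these are not reported here); further list members were named after their values were seen. No pairing by replicate number is stated, and the main fit used none.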

Additional observations from a re-analysis of the deposited data

How the results depend on the processing

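The count of NMD factors called was 1 over all libraries and 0 to 5 when 1 library was left out (0 to 2 lower, 0 to 3 higher). The count over all mRNA genes ran from 665 to 4917 (4.99% to 36.8%) in those fits, and that of the 22 other pathway genes, 8 over all libraries, from 2 to 10. Left-out fits gave log2 fold changes of -0.11 to 0.0068 for Upf1, -0.079 to 0.88 for Upf2, -0.16 to 0.0071 for Upf3a, 0.11 to 0.87 for Upf3b, 0.21 to 0.97 for Smg1, -0.52 to -0.42 for Smg9, -0.14 to -0.04 for Smg8, -0.36 to -0.25 for Smg5 and -0.23 to -0.16 for Smg6. DESeq2 and edgeR with its size factors each called 2 factors, both lower, adding Smg5 (-0.29 in each). Length correction called 3, all lower, with Smg5 at -0.51, Smg6 at -0.52 and Upf2 turned to -0.033. Length and GC correction called 4, all lower, with Upf1 at -0.26, Smg5 at -0.46, Smg6 at -0.51, and Upf2 and Smg1 turned to -0.055 and -0.019. One surrogate variable gave 5588 genes, 12 other pathway genes and 4 factors, 3 lower (Smg5 at -0.25 and Smg6 at -0.18 among them) and 1 higher (Smg1 at 0.36), with Upf1 turned to 0.0031. For these shifts the cause was not tested.

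With the replicate number as a block, 1273 genes (9.73%), 5 other pathway genes and 0 NMD factors passed (0 lower, 0 higher; Smg9 at -0.44, edgeR adjusted p = 0.0604). Same-numbered libraries deviated with correlations of 0.02, 0.17 and -0.26, and differently numbered ones with -0.30 to 0.27. These values show no pairing by number, though so few cannot exclude it. In the lncRNA table the block called 0 transcripts, against 42 without it (883 at an unadjusted p under 0.05) and 257 with DESeq2, and the fits that left out a library called 0 to 77. There, 1 transcript annotated as an NMD substrate passed with DESeq2 and 2 with no filter, against 0. The sign of the change in Smg9, Smg5, Smg6, Smg8 and Upf3b held in every alternative run, and these runs share libraries. The depth of Upf3b, 232 to 481 counts per library, and 3 libraries a group limit the size of change that could be detected.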
